A study of Rattus norvegicus with 10 samples.

Results

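Galactolipids are the lipids that set myelin apart from other membranes, and 10 genes of their synthesis and of the fatty acids in them were followed here in RNAseq of primary rat cells. The genes were Ugt8, Gal3st1, Fa2h, Cers2, Elovl1, Elovl5, Fasn, Acaca, Srebf1 and Sptlc2. They were chosen by gene symbol and each matched 1 gene ID, which makes them 10 of the 23487 genes counted. Their Ensembl IDs, in the same order, are ENSRNOG00000009345, ENSRNOG00000042041, ENSRNOG00000018950, ENSRNOG00000021138, ENSRNOG00000028448, ENSRNOG00000006331, ENSRNOG00000045636, ENSRNOG00000034013, ENSRNOG00000003463 and ENSRNOG00000012210.

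Oligodendrocytes (OLs) make galactosylceramide from ceramide and UDP-galactose, and sulfation of this lipid gives sulfatide. Much of the myelin galactolipid carries very long chain and 2-hydroxylated fatty acids, so elongases, a ceramide synthase and a hydroxylase belong to the pathway beside the galactosyltransferase. Fatty acid synthesis itself is under the control of SREBP transcription factors, which oligodendrocyte precursor cells (OPCs) and OLs both use while they build membrane.

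All cells came from cortices of Sprague-Dawley rat pups taken at postnatal day 1 to 3, were shaken off mixed glial cultures as OPCs, and were transfected with 30 nM oligonucleotide. OLs had been switched to medium with T3 and CNTF and were collected 5 days after transfection (differentiation day 5, DD5), and OPCs were kept in FGF2 and PDGFAA and collected 24 h after it. The question was how miR-145 acts on OLs and their precursors, and it was put with mimics (miR-145 added) and an inhibitor (miR-145 blocked). Each of the 5 groups had 2 libraries. The study's methods for its sequencing name lentivirus in place of a mimic, whereas its results and the labels name mimics, and the labels were followed.

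The OL groups had received a miR-145-5p mimic (OL miR-145), that mimic together with a miR-219 mimic (OL miR-145 + miR-219), or a scrambled mimic (OL miR-ctl). The OPC groups had received a miR-145-5p inhibitor (OPC anti-miR-145) or a scrambled inhibitor (OPC anti-ctl). One tag of the OL miR-145 libraries also names miR-219, but their titles name miR-145 alone, and they were grouped by title. The mature miRNA given as mimic is shown from RefSeq, with its seed (bases 2 to 8) in capitals, because it is the agent in the miR-145 groups. The arm of the miR-219 mimic is not given in the sources used here, and mature miRNAs were not analysed here.
rno-miR-145-5p: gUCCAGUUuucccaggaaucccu

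Library totals ran from 33505706 counts (OL miR-ctl replicate 2) to 42684206 counts (OPC anti-miR-145 replicate 2). The lowest count of any member in any library was 107, for Fa2h in OPC anti-ctl replicate 2, and all 10 genes passed the filter on low counts in every comparison. Levels are given as CPM, counts scaled to library size with TMM factors over the 10 libraries, and since gene lengths were not used, they are compared between groups and not between genes. The study describes replicates of its primary cultures as cells from separate mice, while these are rat cells and their labels do not say whether the libraries of a group came from separate cultures. P-values here measure only the spread between these libraries, which may be technical.

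The labels were checked against markers. Mbp, a major myelin protein gene, was at 6224 and 13143 CPM in OL miR-ctl against 251 and 279.5 CPM in OPC anti-ctl. Pdgfra, a receptor of OPCs, was at 265 and 186 CPM in OL miR-ctl and 915 and 908 CPM in OPC anti-ctl. The 8 oligodendrocyte markers summed to between 15460 and 33920 CPM in the OL libraries and to between 1089 and 1320 CPM in the OPC libraries. The 6 OPC markers, led by Ptprz1, summed to between 1289 and 2013 CPM in the OL libraries and to between 3703 and 4800 CPM in the OPC libraries. The OL cultures also held astrocyte RNA, with 8 markers summing to between 5388 and 13130 CPM, led by Gfap, against between 474 and 678.6 CPM in the OPC cultures. The 11 microglia markers, led by Csf1r, summed to between 351 and 977 CPM in the OL libraries and to between 877 and 1078 CPM in the OPC libraries. Of the other lists, 5 neuron markers (led by Map2) summed to between 369 and 714 CPM, 4 of fibroblasts or mural cells (Col1a1) to between 1.15 and 24.3 CPM, 3 of endothelium (Kdr) to between 2.09 and 20.6 CPM and 2 of Schwann cells (Prx) to between 2.56 and 15.8 CPM. No marker that was found had 0 counts in every library. In such bulk samples fewer cells of a type and less RNA per cell cannot be told apart.

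The galactosyltransferase gene Ugt8, whose enzyme adds galactose to ceramide, was at 97.7 and 94.6 CPM in OPC anti-ctl and at 65.4 and 83.3 CPM in OPC anti-miR-145. In OLs it was at 703 and 763 CPM with miR-ctl, 454 and 650.3 CPM with miR-145, and 569.7 and 875 CPM with miR-145 + miR-219. Every OL library was above every OPC library, and within OLs the miR-145 pair lay below the miR-ctl pair while the pair with both mimics spanned it.

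Fa2h, the fatty acid 2-hydroxylase, was at 2.67 and 2.93 CPM in OPC anti-ctl and at 2.93 and 4.13 CPM in OPC anti-miR-145. In OLs it was at 100.1 and 63.9 CPM with miR-ctl, 61.6 and 52.7 CPM with miR-145, and 58.9 and 63.2 CPM with miR-145 + miR-219. The OL libraries were again all higher, and the lower miR-ctl library was just above the 4 libraries given miR-145.

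Gal3st1, which encodes the sulfotransferase that turns galactosylceramide into sulfatide, did not follow the other galactolipid genes. It was at 78.4 and 71.8 CPM in OPC anti-ctl, and at 63.1 and 60.8 CPM in OPC anti-miR-145. In OLs it was at 77.4 and 59.0 CPM with miR-ctl, 46.7 and 42.5 CPM with miR-145, and 45.9 and 61.6 CPM with miR-145 + miR-219. By mean ± SD (n = 2) the order ran from OPC anti-ctl (75.1 ± 4.69 CPM) over OL miR-ctl (68.2 ± 13.03), OPC anti-miR-145 (61.9 ± 1.63) and OL miR-145 + miR-219 (53.8 ± 11.1) to OL miR-145 (44.6 ± 2.97). Each group overlapped its neighbours in this order.

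Cers2, the ceramide synthase for very long chain acyl groups, was at 132 and 125 CPM in OPC anti-ctl and 115 and 106 CPM in OPC anti-miR-145. In OLs it was at 179.7 and 275 CPM with miR-ctl, 186 and 265 CPM with miR-145, and 205 and 325 CPM with miR-145 + miR-219. Elovl1, an elongase of saturated very long chain fatty acids, ran from 76.4 to 78.6 CPM over the 4 OPC libraries and from 122 to 198 CPM over the 6 OL libraries. For both genes the OL libraries were all above the OPC libraries and the OL groups overlapped.

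Elovl5, an elongase of polyunsaturated fatty acids, ran from 95.0 to 106 CPM in OPCs. In OLs it was at 184 and 165.7 CPM with miR-ctl, 234 and 189 CPM with miR-145, and 212 and 165.7 CPM with miR-145 + miR-219. The miR-145 pair was above the miR-ctl pair, and the pair with both mimics overlapped each of the others.

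Srebf1, which encodes the SREBP-1 transcription factors of fatty acid synthesis, was at 26.2 and 24.6 CPM in OPC anti-ctl and at 34.2 and 32.3 CPM in OPC anti-miR-145. In OLs it was at 79.7 and 70.8 CPM with miR-ctl, 118 and 122 CPM with miR-145, and 106 and 88.3 CPM with miR-145 + miR-219. It was the one member whose 5 groups did not overlap at any step, in the order OPC anti-ctl, OPC anti-miR-145, OL miR-ctl, OL miR-145 + miR-219, OL miR-145.

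Fasn, the fatty acid synthase, and Acaca, the acetyl-CoA carboxylase that supplies its malonyl-CoA, lay the other way. Fasn was at 1093 and 1002 CPM in OPC anti-ctl, 972 and 1152 CPM in OPC anti-miR-145, and between 726 and 962 CPM in the OL libraries. Acaca was at 171 and 156 CPM in OPC anti-ctl, 182 and 240.3 CPM in OPC anti-miR-145, and between 105 and 139 CPM in the OL libraries. For both genes the highest OL library was below the lowest OPC library. Sptlc2, a subunit of the serine palmitoyltransferase that starts sphingoid base synthesis, stayed between 36.4 and 46.2 CPM in the 10 libraries, with OPC and OL values overlapping.

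**Figure D1:**
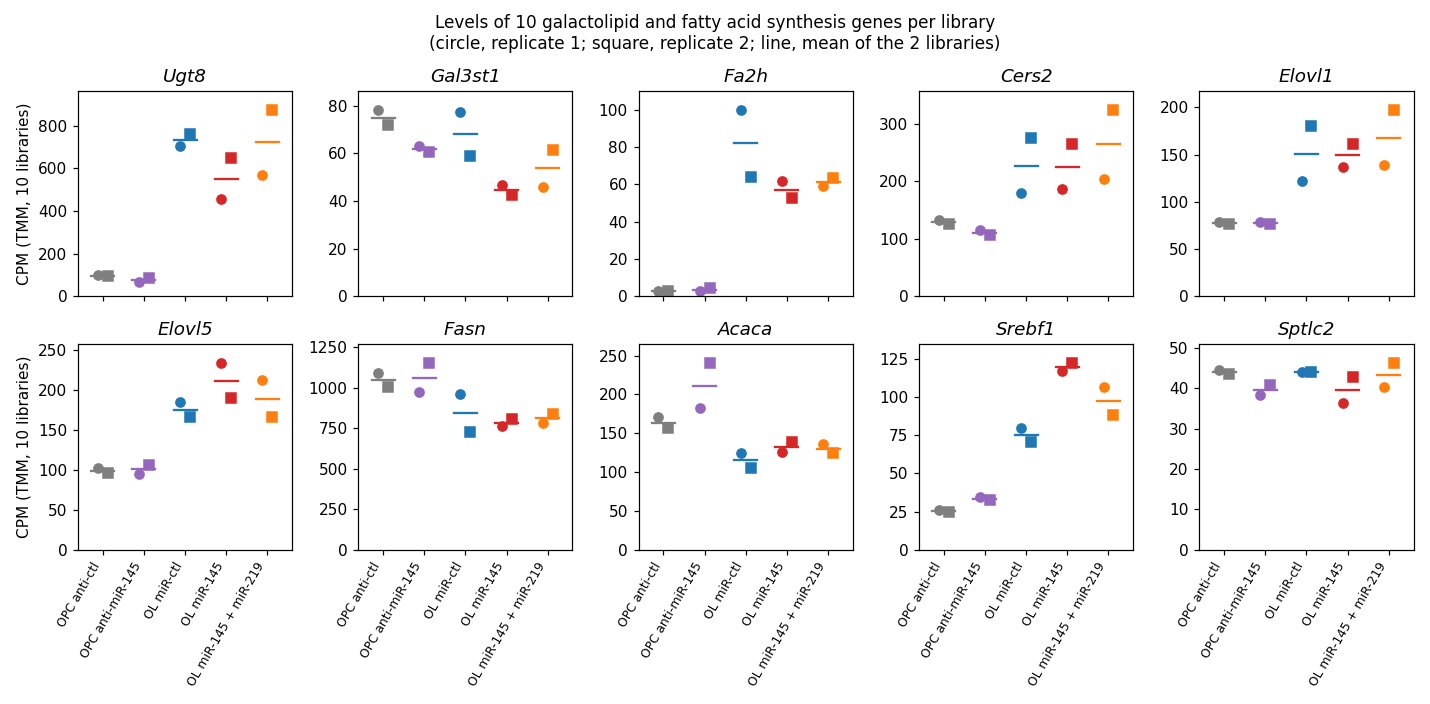
Level of each member gene (CPM after TMM scaling, linear axis from 0) in the 2 libraries of each of the 5 groups. Circles are replicate 1, squares replicate 2 and lines the mean of 2; Ugt8 and Fa2h are high in all OL libraries, Gal3st1 and Sptlc2 are not, and Fasn and Acaca are lower in OLs than in OPCs.

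Between the control groups, OL miR-ctl and OPC anti-ctl, edgeR's quasi-likelihood fit, with p-values adjusted by Benjamini-Hochberg over 15721 genes, called 57.5% of genes (9042) at an adjusted p under 0.05, which was 5071 without OPC anti-ctl replicate 1 and 5016 without its replicate 2. Of the 10 members it called 6 higher in OLs, where 28.8% of all genes were called higher, and 1 lower, where 28.7% were. Stage, medium, time after transfection and kind of control oligonucleotide differed together and cannot be told apart.

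Fa2h rose by a log2 fold change of 4.87 (SE 0.27, 29.2-fold, edgeR adjusted p = 0.000147), and Ugt8 by 2.93 (SE 0.0891, 7.6-fold, edgeR adjusted p = 4.65e-05). Gal3st1, the next enzyme after Ugt8, had a log2 fold change of -0.14 (SE 0.144, edgeR adjusted p = 0.437), and its OL and OPC control libraries overlapped. Without OL miR-ctl replicate 1 its log2 fold change was -0.35, in a fit whose spread comes from the OPC anti-ctl pair alone. The enzymes of chain length rose less, Elovl1 by 0.95 (SE 0.193), Elovl5 by 0.82 (SE 0.0872) and Cers2 by 0.82 (SE 0.205), with edgeR adjusted p-values of 0.0101, 0.00113 and 0.0204.

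Srebf1 rose by 1.56 (SE 0.0956, 2.96-fold, edgeR adjusted p = 0.00019), while Acaca fell by 0.51 on the log2 scale (SE 0.108, edgeR adjusted p = 0.0118). Fasn had a log2 fold change of -0.32 (SE 0.15, edgeR adjusted p = 0.128). Without OL miR-ctl replicate 1 it was -0.53, in a fit whose spread comes from the OPC anti-ctl pair alone. Sptlc2 was at -0.0024 (SE 0.0763, edgeR adjusted p = 0.981). Fits that leave out 1 library, among the alternatives that follow, take their spread from the group that keeps its pair. Without OPC anti-ctl replicate 1 or 2 the calls of Cers2 (edgeR adjusted p = 0.0968 and 0.114), Elovl1 (0.0659 and 0.0688) and Acaca (0.099 and 0.0599) were lost, and 4 members were called each time. Over all alternatives these 3 adjusted p-values ran from 1.29e-08 to 0.114 for Cers2, from 4.38e-09 to 0.0688 for Elovl1 and from 8.36e-06 to 0.099 for Acaca.

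The pathway lists hold genes other than the 10 members, so that Fasn, Acaca, Elovl1 and Elovl5 are not in the fatty acid synthesis list, Cers2 and Sptlc2 not in the ceramide list and Srebf1 not in the SREBP list. Their counts between OLs and OPCs stand beside 28.8% of all genes called higher, 28.7% called lower and an all-gene median log2 fold change of 0.0072, and no difference between lists was tested. Of 23 listed genes of fatty acid synthesis, elongation and desaturation, 20 were found by symbol, and Elovl3 and Elovl6 were not. Of the 20, 14 were called higher and 0 lower by edgeR (median 0.58). In that list 14 had an unadjusted p under 0.05 and DESeq2 called 13 higher and 0 lower. Of the members outside it Elovl1 (0.95) and Elovl5 (0.82) were called higher, Acaca was called lower (-0.51) and Fasn was at -0.32. The calls of Elovl1 and Acaca were lost without OPC anti-ctl replicate 1 or 2. The higher genes of the list included Elovl2, an elongase of polyunsaturated fatty acids (log2 fold change 4.21, SE 0.154, edgeR adjusted p = 6.01e-05), and Hacd3, a dehydratase of the elongation cycle (0.93, SE 0.0913, edgeR adjusted p = 0.000852). Of 12 genes of sphingoid base and ceramide synthesis, 6 were called higher and 2 lower (median 0.37), among them Kdsr, the second enzyme of sphingoid base synthesis (1.17), Cers1 (1.07) and, lower, Cers4 (-0.93).

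Of 18 genes of galactose supply, glycosphingolipid branches and galactolipid breakdown, 10 were called higher and 2 lower (median 0.41). Sgms2, a sphingomyelin synthase, rose by 3.11 on the log2 scale (SE 0.153, edgeR adjusted p = 0.000108) and Gltp, a glycolipid transfer protein, by 1.30 (SE 0.0816, edgeR adjusted p = 0.000205). Ugcg, which makes glucosylceramide from the same ceramide that Ugt8 uses, fell by 0.70 on the log2 scale (SE 0.0769, edgeR adjusted p = 0.00125).

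Of 13 genes of fatty acid activation and binding, 8 were called higher and 4 lower (median 0.39). Acsl6 rose by 2.22 on the log2 scale and Acsl1 by 2.01, while Acsl4 fell by 1.56 and Acsl5 by 1.45. Of 12 gene IDs of plasmalogen synthesis and peroxisomal beta-oxidation, 6 were called higher and 0 lower by edgeR (median 0.45, 7 at an unadjusted p under 0.05, 6 higher and 0 lower with DESeq2), with Tmem189, the plasmanylethanolamine desaturase, at 2.32. Pex5 is carried by 2 of these IDs and is uncertain. Of 12 genes of SREBP and LXR control, 4 were called higher and 3 lower (median -0.058), near the shares of all genes, while the member Srebf1 rose. Lpin1 was at 1.14, and Srebf2, which encodes the sterol-linked SREBP-2, was at -0.50.

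Several list counts moved when 1 library was left out. Without OPC anti-ctl replicate 1 or 2, edgeR called 4 and 5 genes higher in the fatty acid synthesis list, 2 and 2 in the ceramide list, and 1 and 1 in the SREBP list, where 0 were then called lower. The lower calls of the galactose list went to 1 and 1, and those of the activation list to 3 and 2. Without OL miR-ctl replicate 1, the lower calls went from 0 to 2 in the fatty acid synthesis list, from 0 to 1 in the plasmalogen list and from 3 to 5 in the SREBP list.

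Markers of other cells moved between OLs and OPCs too, where 28.8% of all genes were called higher and 28.7% lower. Of the 8 astrocyte markers 7 were called higher in OLs (median 2.26), as were 7 of the 8 oligodendrocyte markers (median 3.20). EdgeR and DESeq2 called 0 of either list lower, with 7 of 8 at an unadjusted p under 0.05 in each, but edgeR called 1 astrocyte marker lower without OL miR-ctl replicate 1 and 1 oligodendrocyte marker lower without its replicate 2. Of the microglia markers edgeR called 5 of 11 lower and 0 higher (median -0.24), with 6 at an unadjusted p under 0.05 and 2 called higher by DESeq2. Without OL miR-ctl replicate 1 it was 3 higher, and without its replicate 2 it was 1. Of the OPC markers 4 of 6 were called lower and 1 higher (median -1.24), with 0 higher without OPC anti-ctl replicate 1 or 2, and of the neuron markers 3 of 5 lower and 1 higher (median -0.80). The endothelial list had 2 of 3 called lower and 1 higher (median -2.51), with 1 lower without OPC anti-ctl replicate 1 or 2. The Schwann cell list had 2 of 2 called higher (median 2.55), which was 1 without OPC anti-ctl replicate 1 or 2, and the fibroblast or mural list 1 of 2 tested (median 1.94). The part of these cell types in the counts of lipid genes was not tested.

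With the miR-145 mimic, none of the 10 members passed edgeR's adjusted test, and Srebf1 passed that of DESeq2. OL miR-145 lay wholly below OL miR-ctl for Ugt8, Gal3st1, Fa2h and Sptlc2, and wholly above it for Elovl5, Acaca and Srebf1. These are 7 of 10 members whose groups did not overlap, where 47.3% of all genes did not. EdgeR called 0 of the 10 members and 0 of 15461 genes (0%), while 2 members and 13.4% of genes had an unadjusted p under 0.05. DESeq2 called 1 member, Srebf1, and 4.2% of genes. With a replicate block edgeR called Srebf1, Gal3st1, Fa2h and Ugt8, but it is not established that the replicate numbers pair the libraries.

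Srebf1 had the largest difference of the 10, a log2 fold change of 0.68 (SE 0.114, 1.6-fold, edgeR adjusted p = 0.158). With DESeq2 its adjusted p was 0.00108, and over all alternatives, edgeR fits included, it ran from 4.84e-06 to 0.561. Gal3st1 was at -0.61 (SE 0.161, edgeR adjusted p = 0.222), Fa2h at -0.52 (SE 0.229, edgeR adjusted p = 0.406) and Ugt8 at -0.40 (SE 0.202, edgeR adjusted p = 0.448). Elovl5 was at 0.28 (SE 0.144), Acaca at 0.21 (SE 0.134), Sptlc2 at -0.15 (SE 0.128) and Fasn at -0.10 (SE 0.174). Elovl1 (-0.013, SE 0.215) and Cers2 (-0.0029, SE 0.265) had differences far smaller than their errors.

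EdgeR called 0 genes of the pathway lists in this comparison, where the all-gene median was -0.011, while DESeq2 called 4 higher in the fatty acid activation list, 3 higher in the fatty acid synthesis list and 0 in the others. In the fatty acid activation list 8 of 13 genes had an unadjusted p under 0.05, where 13.4% of all genes had (median 0.31), 6 of them higher and 2 lower. The lower ones were Acsl1 (-0.40, SE 0.122, edgeR adjusted p = 0.278) and Acsl3 (-0.53, SE 0.179, edgeR adjusted p = 0.32), and among the higher ones were Fabp7, a brain fatty acid binding protein, at 1.04 (SE 0.158, edgeR adjusted p = 0.158) and Acsbg1, an acyl-CoA synthetase, at 1.22 (SE 0.225, edgeR adjusted p = 0.164). In the fatty acid synthesis list 4 of 20 did (median 0.15). Elovl2 was at 82.8 and 46.5 CPM with miR-145 against 18.1 and 17.6 CPM with miR-ctl, and its log2 fold change was 1.86 (SE 0.28, edgeR adjusted p = 0.158).

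In the galactose list 3 of 18 genes had an unadjusted p under 0.05, near the 13.4% of all genes (median 0.076, 12 of 18 with a positive log2 fold change), with Pgm1, a phosphoglucomutase, at 0.56, Gltp at -0.37 and Sgms2 at -0.70. In the ceramide list it was 1 of 11 tested (median 0.072), in the SREBP list 1 of 12 (median -0.059), and in the plasmalogen list 1 of 12 gene IDs (median 0.0090), which are near or below that share. Scap, which escorts SREBPs to the Golgi, was at 0.48 and Srebf2 at -0.27.

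Astrocyte markers moved with this comparison, in which 13.4% of all genes had an unadjusted p under 0.05. All 8 were higher in both OL miR-145 libraries than in either OL miR-ctl library (median log2 fold change 0.88, 0 called by edgeR, 5 by DESeq2, 7 with an unadjusted p under 0.05). Their sum was 13130 and 8919 CPM against 6390 and 5388 CPM, with Gfap the most abundant. The oligodendrocyte markers had a median of -0.21 with 0 of 8 called by edgeR or DESeq2 and 0 at an unadjusted p under 0.05, and summed to 15460 and 24730 CPM against 16710 and 30780 CPM. The microglia list, led by Csf1r, had 11 of 11 genes with positive log2 fold changes (median 0.61, 2 without overlap and 1, Cx3cr1 at 1.91, with an unadjusted p under 0.05), and summed to 376 and 977 CPM against 388 and 582 CPM. All 3 fibroblast or mural markers tested were higher without overlap (median 2.57, each with an unadjusted p under 0.05), with list sums of 7.50 and 24.3 CPM against 3.64 and 3.59 CPM. Of 3 endothelial markers, 2 had an unadjusted p under 0.05, Cdh5 at 2.27 and Kdr at -1.27 (list median 0.44, sums of 9.87 and 6.21 CPM against 20.6 and 14.8 CPM). Cdh5 was near the floor, at 0.404 and 0.429 CPM against 0.0503 and 0.123 CPM. The OPC, neuron and Schwann cell lists had medians of -0.12, 0.018 and -0.028, with 1, 1 and 0 genes at an unadjusted p under 0.05. EdgeR called 0 genes of these 6 lists, and DESeq2 called 1 higher in the microglia list, 1 higher in the fibroblast or mural list, 1 lower in the endothelial list and 0 in the other 3. The part of these cells in the values of Srebf1, Elovl2, Fabp7 and the other genes was not tested.

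With miR-219 added to the miR-145 mimic, Srebf1 was again above and Fa2h below OL miR-ctl, whose libraries are those of the comparison above. EdgeR called 0 members and 0 of 15436 genes (0%). At an unadjusted p under 0.05 it was 1 member, Srebf1, and 6.19% of genes, and DESeq2 called 0 members and 0.687% of genes. These 2 of 10 members did not overlap with the control, where 36.7% of all genes did not overlap.

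The log2 fold change of Srebf1 was 0.37 (SE 0.136, edgeR adjusted p = 0.801), that of Fa2h -0.42 (SE 0.23, edgeR adjusted p = 0.818) and that of Gal3st1 -0.34 (SE 0.209, edgeR adjusted p = 0.832). Ugt8 was at -0.016 (SE 0.23), with its 2 libraries on either side of the miR-ctl pair. The other 6 members lay between -0.055 (Fasn) and 0.23 (Cers2), each overlapping.

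All 8 astrocyte markers again had positive log2 fold changes (median 0.55, 3 with an unadjusted p under 0.05, where 6.19% of all genes had, sums of 10870 and 6417 CPM). Both fibroblast or mural markers tested (median 0.96) had an unadjusted p under 0.05. So did 2 of 3 endothelial markers, Cdh5 at 2.36 (near the floor, at 0.494 and 0.393 CPM) and Kdr at -1.09 (list median -1.09). Of 11 microglia markers, 7 with positive log2 fold changes and 4 with negative ones (median 0.27), 1 did, Cx3cr1 at 1.51 (SE 0.171, edgeR adjusted p = 0.777). The oligodendrocyte, OPC, neuron and Schwann cell lists had medians of 0.26, -0.15, -0.061 and -0.23, with 0, 1, 1 and 0 genes at an unadjusted p under 0.05. EdgeR called 0 genes of these 8 lists, and DESeq2 called 1 astrocyte and 1 microglia marker higher, 1 endothelial marker lower and 0 in the other 5. The part of these cells in the values of the members was not tested.

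Set against OL miR-145 itself, a comparison that shares those libraries, the pair with both mimics overlapped in 9 of the 10 members. EdgeR called 0 members and 0 of 15501 genes (0%), 0 members and 1.47% of genes had an unadjusted p under 0.05, and DESeq2 called 0 members and 0.0581% of genes. Srebf1 was lower without overlap (-0.31, SE 0.129, edgeR adjusted p = 1), 1 of 10 members where 24.8% of genes did not overlap. Ugt8 was at 0.38 (SE 0.289), Gal3st1 at 0.26 (SE 0.171) and Fa2h at 0.087 (SE 0.118), and all 3 overlapped. With a replicate block edgeR called Ugt8, with the same limit on pairing. The 8 oligodendrocyte markers all had positive log2 fold changes (median 0.30), and the 8 astrocyte and 11 microglia markers all had negative ones (medians -0.31 and -0.48). The OPC, neuron, fibroblast or mural, endothelial and Schwann cell lists had medians of -0.029, -0.090, -1.13, 0.080 and -0.21. EdgeR and DESeq2 called 0 genes of these lists, and 1 gene, the endothelial marker Flt1 (-2.29), had an unadjusted p under 0.05. Flt1 was near the floor, at 0.0247 and 0.168 CPM with both mimics against 0.375 and 0.556 CPM with miR-145. The part of these cells was not tested.

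In OPCs the miR-145 inhibitor was compared with its scrambled control after 24 h. The control libraries here are also those of the comparison between OLs and OPCs. EdgeR called 28.1% of 15496 genes (4348) and 1 of the 10 members, Srebf1, higher, where 12.1% of genes were called higher. It called 0 members lower, where 16% of genes were called lower, and 4 members, 2 of them lower, had an unadjusted p under 0.05, where 40.9% of all genes had. DESeq2 called 2 members higher and 1, Ugt8, lower, where it called 26.5% of all genes. The groups did not overlap for 6 members, where 67.8% of all genes did not: Acaca and Srebf1 were higher, and Ugt8, Gal3st1, Cers2 and Sptlc2 lower. The gene count went to 2424 and 2530 without OPC anti-ctl replicate 1 or 2, when 0 members were called, and to 7130 without OPC anti-miR-145 replicate 2, when 3 were.

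Srebf1 rose by 0.41 on the log2 scale (SE 0.0932, 1.32-fold, edgeR adjusted p = 0.0187). That call was lost without OPC anti-ctl replicate 1 (0.42, edgeR adjusted p = 0.126) or replicate 2 (0.34, edgeR adjusted p = 0.215), and over all alternatives its adjusted p ran from 0.00156 to 0.215. Acaca was at 0.38 (SE 0.129, edgeR adjusted p = 0.0668), and OPC anti-miR-145 replicate 2 was above the other 3 libraries. Fasn was at 0.035 (SE 0.102, edgeR adjusted p = 0.825).

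On the galactolipid side, Ugt8 was at -0.36 (SE 0.116, edgeR adjusted p = 0.0588) and Gal3st1 at -0.26 (SE 0.086, edgeR adjusted p = 0.0604). Fits without replicate 1 or 2 of OPC anti-miR-145 take their spread from the OPC anti-ctl pair alone. Their calls of Ugt8 and Gal3st1 therefore cannot decide whether these genes fell. Without OPC anti-miR-145 replicate 1, Cers2 was at -0.27 and Acaca at 0.56. The low ends of the adjusted p ranges that follow come from such fits. Over all alternatives the adjusted p ran from 0.00014 to 0.361 for Ugt8, from 0.0104 to 0.427 for Gal3st1, from 0.00997 to 0.688 for Cers2 and from 9.23e-05 to 0.314 for Acaca. Fa2h was at 0.35 (SE 0.217, edgeR adjusted p = 0.269) from counts of 107 to 182 per library, and Cers2 at -0.20 (SE 0.0868), Sptlc2 at -0.14 (SE 0.0839), Elovl5 at 0.042 and Elovl1 at 0.011.

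Around these members, 8 of 19 other genes of fatty acid synthesis, elongation and desaturation were called higher and 0 lower by edgeR (median 0.25, all genes 0.0045), where 12.1% and 16% of all genes were, with 10 at an unadjusted p under 0.05 and the same counts of 8 and 0 with DESeq2. Acly, which makes cytosolic acetyl-CoA, was at 769 and 811 CPM with the inhibitor against 529.8 and 503 CPM, a log2 fold change of 0.63 (SE 0.0805, edgeR adjusted p = 0.00161). The desaturase genes Scd2 (0.56, SE 0.0882, edgeR adjusted p = 0.004) and Fads1 (0.52, SE 0.0771, edgeR adjusted p = 0.0032) rose as well. Fasn, the synthase between these steps, overlapped between the groups. Without OPC anti-ctl replicate 1 or 2 the list had 4 and 3 genes called higher.

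In the SREBP list, which does not hold Srebf1, 4 of 12 were called higher and 1 lower (median 0.082), where 12.1% and 16% of all genes were, the higher ones including Insig1, which holds SREBPs in the endoplasmic reticulum (0.44, SE 0.0769, edgeR adjusted p = 0.00604), Srebf2 (0.37, SE 0.0797, edgeR adjusted p = 0.015) and Lpin1 (0.37). Nr1h3, which encodes the sterol receptor LXR alpha, fell by 1.57 (SE 0.209, edgeR adjusted p = 0.00191), from a mean of 4.12 to 1.37 CPM. Without OPC anti-ctl replicate 1 or 2, 0 genes of this list were called higher by edgeR, and without OPC anti-miR-145 replicate 1 or 2 the lower calls went to 2.

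Of 18 genes of the galactose list 4 were called higher and 3 lower (median -0.067), where 12.1% and 16% of all genes were. Sgms2 fell by 2.03 on the log2 scale (SE 0.281, edgeR adjusted p = 0.00226), from 2.01 and 1.73 CPM to 0.422 and 0.477 CPM, and Ugcg by 0.51 (SE 0.0834, edgeR adjusted p = 0.00495). Galk1, the first enzyme of galactose use, rose by 0.57 (SE 0.127, edgeR adjusted p = 0.0168). Without OPC anti-ctl replicate 1 or 2 the higher calls went to 0 and 0 and the lower to 1 and 2, and without OPC anti-miR-145 replicate 1 the lower went to 6.

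The counts of the other 3 lists lay near or below the shares of all genes called higher (12.1%) and lower (16%). Of 12 genes of the ceramide list 2 were called higher and 2 lower (median 0.0074), with Kdsr at 0.47 and Cers6, a ceramide synthase, at -1.12 (SE 0.158, edgeR adjusted p = 0.00253). Of 13 in the activation list 1 was called higher, Acsl3 (0.46), and 1 lower, Acsbg1 (-0.76), with a median of -0.10. Of 12 gene IDs in the plasmalogen list 2 were called higher, Gnpat (0.59) and Hsd17b4 (0.30), and 1 lower, Abcd2 (-0.98), with a median of 0.028. With 1 library left out, higher and lower calls ran from 0 to 6 and from 1 to 4 in the ceramide list, from 0 to 2 and from 1 to 5 in the activation list, and from 1 to 3 and from 1 to 3 in the plasmalogen list. The low ends came without OPC anti-ctl replicate 1 or 2, and the high ends without OPC anti-miR-145 replicate 2, apart from the 5 lower calls of the activation list, which came without its replicate 1.

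Markers of several cell types moved in this comparison too, where 12.1% of all genes were called higher and 16% lower. Of 11 microglia markers 6 were called higher and 4 lower, with sums of 1078 and 877 CPM against 1014 and 949 CPM. Gfap was higher (log2 fold change 2.53, SE 0.13, edgeR adjusted p = 6.22e-05), though at 40.7 and 51.1 CPM, while the astrocyte list as a whole had 2 called higher and 3 lower and summed to 474 and 525 CPM against 678.6 and 639 CPM. The OPC markers were mixed, with 1 of 6 called higher, Pdgfra (0.61, SE 0.11, edgeR adjusted p = 0.00709), and 1 lower, Cspg4 (-0.56, SE 0.101, edgeR adjusted p = 0.00723), and a median of -0.076. Without OPC anti-miR-145 replicate 1 it was 2 higher, and without its replicate 2 it was 3 lower. Of 5 neuron markers 2 were called higher, Tubb3 (1.18, SE 0.0957, edgeR adjusted p = 0.000233) and Rbfox3 (0.88, SE 0.128, edgeR adjusted p = 0.00287), and 0 lower, which was 1 without OPC anti-miR-145 replicate 2. The neuron list median was 0.054, and Stmn2 (-0.34, edgeR adjusted p = 0.0981) and Syt1 (-0.29, edgeR adjusted p = 0.092) were lower without overlap. Of 3 endothelial markers 1 was called lower, Flt1 (-3.56, SE 0.188, edgeR adjusted p = 6.45e-05). It went from 10.7 and 10.1 CPM to 0.993 and 0.749 CPM. Kdr (0.97, edgeR adjusted p = 0.0865) and Cdh5 (0.31, edgeR adjusted p = 0.547) had positive log2 fold changes, and the endothelial list median was 0.31. Of the fibroblast or mural and Schwann cell markers tested edgeR and DESeq2 called 0, with 1 and 0 at an unadjusted p under 0.05. Of the oligodendrocyte markers, 2 of 8 were called lower and 1 higher (median -0.24), the higher call being absent without OPC anti-ctl replicate 1 or 2. Their part in the changes of the lipid genes was not tested.

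Side by side, the mimic in OLs and the inhibitor in OPCs, which share no library, gave log2 fold changes of 0.68 and 0.41 for Srebf1, 0.21 and 0.38 for Acaca, -0.40 and -0.36 for Ugt8, and -0.61 and -0.26 for Gal3st1. For Sptlc2 they were -0.15 and -0.14, for Elovl5 0.28 and 0.042, and for Cers2 -0.0029 and -0.20. For Fa2h they were -0.52 and 0.35, for Fasn -0.10 and 0.035, and for Elovl1 -0.013 and 0.011. Of these only Srebf1 in OPCs was called by edgeR, and no difference between the comparisons was tested. The comparisons differ together in stage, medium, time after transfection and agent, which cannot be told apart.

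**Figure D2:**
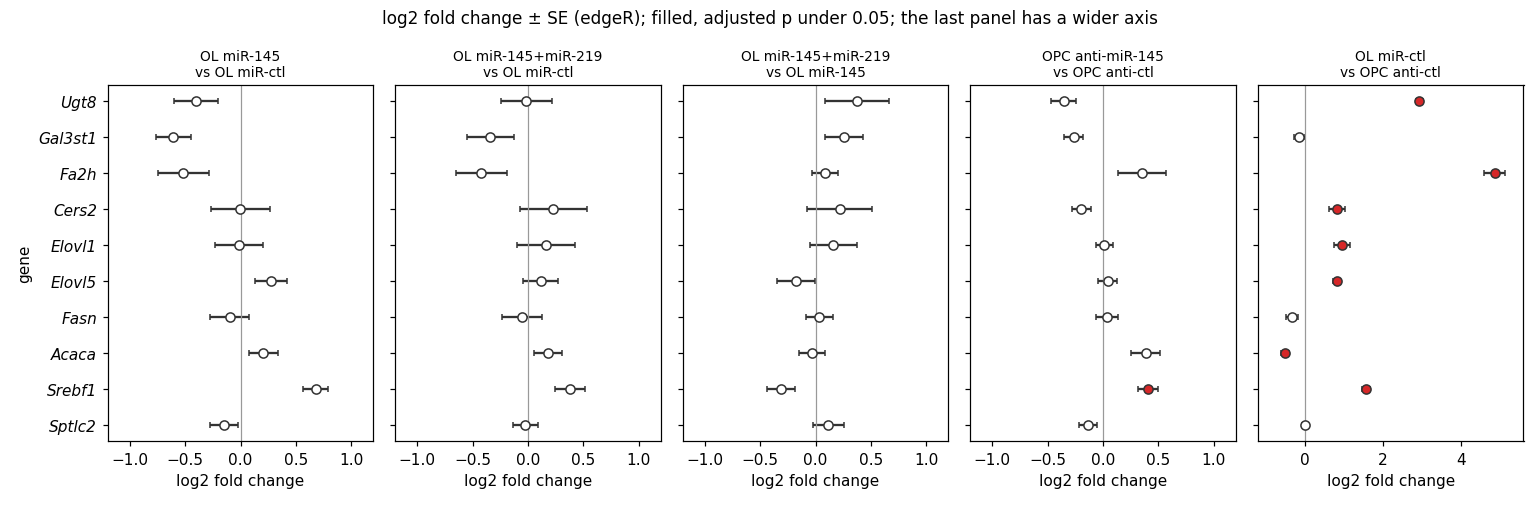
Log2 fold change (x axis) of each member gene (y axis) in 5 comparisons, 2 libraries against 2, with bars of 1 SE from edgeR. Filled points have an adjusted p under 0.05, which is 1 member in the OPC inhibitor comparison and 7 in OL miR-ctl against OPC anti-ctl, drawn on a wider axis; 0 members are filled in the comparisons among OL groups.

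By Pearson correlation of log2(CPM + 1) over the 10 libraries, a description in which OPC and OL libraries form separate clusters, Ugt8 was closest to Atp11a (0.999), Mob3b, Pcsk6, Ppp1r16b and Abca2 among 9585 genes. Fa2h was closest to Tbc1d14, Mycl, Bmp4, Slc6a8 and St8sia5 (0.997 to 0.998). The nearest genes to Gal3st1 were Luc7l (0.926), Zbtb40, Casp2, Rbm5 and Mtf2 (0.913).

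RefSeq promoter windows (GRCr8, 250 bases before to 50 after the gene start) matched 8 of the 10 members, with 2 windows for Srebf1 and without Fasn and Acaca. Each was searched on both strands for the sterol regulatory element core TCACNCCAC, CACGTG, the NF-Y box CCAAT, the Sp1 box GGGCGG, the Sox box ACAAAG and the Myrf motif CTGGNAC, which 1.12%, 6.42%, 37.5%, 33.1%, 18.8% and 18.2% of 33469 windows of this length hold. No member window held the sterol core. Elovl5 held the single CACGTG, Elovl1 held 1 ACAAAG overlapping 1 CTGGNAC, and Sptlc2 held 5 CCAAT.

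The windows of the 2 members that rose most between OPCs and OLs and of Gal3st1, which did not, are printed 5′ to 3′ with every match of these motifs in capitals. Ugt8 lies at chr2:217007118-217007417 (minus strand), Fa2h at chr19:56273431-56273730 (minus strand) and Gal3st1 at chr14:83094135-83094434 (plus strand). Ugt8 had 3 GGGCGG and 0 CCAAT, Fa2h 1 and 2, and Gal3st1 2 and 1. A match is a description of letters and not of a site in use.
Ugt8: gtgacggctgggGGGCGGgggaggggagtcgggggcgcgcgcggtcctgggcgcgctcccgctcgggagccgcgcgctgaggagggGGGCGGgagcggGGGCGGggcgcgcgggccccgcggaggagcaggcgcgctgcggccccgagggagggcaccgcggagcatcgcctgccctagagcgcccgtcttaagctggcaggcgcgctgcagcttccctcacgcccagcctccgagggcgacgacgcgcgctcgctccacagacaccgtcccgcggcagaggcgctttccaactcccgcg
Fa2h: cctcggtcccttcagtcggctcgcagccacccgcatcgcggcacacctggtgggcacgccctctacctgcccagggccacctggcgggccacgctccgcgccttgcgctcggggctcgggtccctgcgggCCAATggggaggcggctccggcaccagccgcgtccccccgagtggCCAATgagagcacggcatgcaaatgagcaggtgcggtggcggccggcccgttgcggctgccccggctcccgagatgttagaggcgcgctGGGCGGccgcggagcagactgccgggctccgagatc
Gal3st1: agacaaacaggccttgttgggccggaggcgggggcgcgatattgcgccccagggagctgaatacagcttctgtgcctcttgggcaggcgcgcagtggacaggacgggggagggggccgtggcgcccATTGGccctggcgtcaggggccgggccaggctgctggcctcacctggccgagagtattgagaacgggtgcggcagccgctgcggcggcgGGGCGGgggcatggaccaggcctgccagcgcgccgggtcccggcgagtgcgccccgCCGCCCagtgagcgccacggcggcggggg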

How the data were processed

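RNA was measured in 10 libraries, 2 in each of 5 groups. The authors quantified reads with Salmon 0.12.0 (submitters' processing notes) against a GENCODE rat annotation of Rnor6 and summed transcripts to genes with tximport, so the deposited values are estimated counts per gene that need not be whole. They were rounded to whole numbers here. A comparison table of the authors holds fold changes and p-values, of which only gene IDs and symbols were used. Of the symbols 266 were carried by more than 1 ID, members by none. Listed symbols that matched no gene are in no count. Among them were Elovl3, Elovl6, Mlxipl, Sptlc3, Degs2, Cers3, Snap25, Col1a2, Cldn5 and Pecam1.

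Libraries were grouped by title, since a treatment tag of the OL miR-145 libraries also names miR-219. A comparison took in each gene that reached 5 counts in 2 or more of its 4 libraries, and the test was that of edgeR 4.0.16 (TMM, quasi-likelihood test, Benjamini-Hochberg adjustment over all genes tested) in R 4.3.3. The standard error is the log2 fold change divided by the square root of F, without its sign. CPM are TMM-scaled over the 10 libraries. The test was tried on simulated counts.

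The 10 members were named throughout. From each pathway list the text took genes among up to 3 higher and 3 lower with the smallest p and no overlap between groups, from each marker list the most abundant gene, and for Ugt8, Gal3st1 and Fa2h the 5 genes of highest correlation at a mean of at least 10 CPM. Not every gene that this takes in is reported here. Mbp, Pdgfra and Gfap were added to check labels and cells, and Cspg4, Tubb3, Rbfox3, Stmn2, Syt1, Flt1, Cdh5 and Cx3cr1 were chosen after their values were seen. Members and lists were chosen with earlier results of these data known. Alternatives were DESeq2 1.42.0, its size factors, other filters, a fit of all 5 groups, a replicate block and leaving out each library. Promoters and miRNAs are from RefSeq (GRCr8). Figures were drawn with Python 3.11.15 and matplotlib 3.10.9.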

Additional observations from a re-analysis of the deposited data

How the results depend on the processing

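The number of genes and of members called kept within 1.5 times its value under the alternatives run, apart from those given here, and the cause was not tested. For OL miR-145 against OL miR-ctl, 0 genes and 0 members became 649 and 1 with DESeq2 and 79 and 1 in a fit of all 5 groups, and 32 genes in that fit with genes filtered over the 10 libraries, an alternative chosen after seeing the data. The planned fit of all 5 groups was first run with that other filter and was then rerun with the genes of each comparison, so that 1 choice changed at a time; both are given. For OL miR-145 + miR-219, 0 genes became 106 with DESeq2 and 1 without a filter against OL miR-ctl, and 9 with DESeq2 against OL miR-145. In OPCs 4348 genes became 2657 in the fit of all 5 groups and 2553 with the other filter, and 1 member became 3 with DESeq2 and 2 with filterByExpr. Leaving out 1 library gave 2424 to 7130 genes and 0 to 5 members in OPCs, 5016 to 10591 genes and 4 to 9 members for OL miR-ctl against OPC anti-ctl, and 0 of each by edgeR among OL groups. Such fits have 3 libraries, and the lone sample is assumed to vary like the other group.

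With a replicate block, 2272 genes and 4 members were called for OL miR-145 against OL miR-ctl: Srebf1 (0.68, edgeR adjusted p = 4.84e-06), Gal3st1 (-0.60, 0.000134), Fa2h (-0.49, 0.0022) and Ugt8 (-0.43, 0.00903). The block gave 132 genes for OL miR-145 + miR-219 against OL miR-ctl, and 184 genes and 1 member, Ugt8 (0.37, edgeR adjusted p = 0.0407), against OL miR-145. Deviations of libraries with the same number correlated at 0.403, 0.467 and 0.632 in these comparisons, at -0.152 in OPCs and at 0.0679 between OLs and OPCs. With 2 pairs these do not establish that the numbers pair the libraries. With the numbers crossed, chosen after seeing the data, 4 members were called in OPCs.

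Signs turned for log2 fold changes of members that were not called, given here as the range with 1 library left out. For OL miR-145 against OL miR-ctl, Cers2 ran from -0.29 to 0.33, Elovl1 from -0.27 to 0.29 and Fasn from -0.29 to 0.12. Cers2 was also at 0.00073 with DESeq2, 0.00088 with its size factors, 0.015 with the study's filter and 0.0060 with the replicate block, and Elovl1 at 0.0038 with the study's filter and 0.0094 with the block. For both mimics against OL miR-ctl, Ugt8 ran from -0.37 to 0.27, Cers2 from -0.16 to 0.56, Elovl1 from -0.13 to 0.47, Elovl5 from -0.069 to 0.27, Fasn from -0.25 to 0.17 and Sptlc2 from -0.14 to 0.079. Against OL miR-145, Fa2h ran from -0.0084 to 0.19, Cers2 from -0.16 to 0.52, Elovl1 from -0.12 to 0.40, Fasn from -0.015 to 0.090, Acaca from -0.12 to 0.056 and Sptlc2 from -0.0016 to 0.25. In OPCs Elovl1 ran from -0.024 to 0.045, Elovl5 from -0.027 to 0.11 and Fasn from -0.078 to 0.14, and Elovl1 was also at -0.013 with filterByExpr and -0.0042 without a filter. Between OLs and OPCs Gal3st1 ran from -0.35 to 0.038 and Sptlc2 from -0.013 to 0.00085, the latter also at 0.012 in the fit of all 5 groups and 0.011 with its other filter. At this depth the 107 to 182 counts of Fa2h in OPC libraries limit its precision there.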

Other observations

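Within each OL group the libraries differed for some members in the same direction. Replicate 2 over replicate 1 was 1.59, 1.42 and 1.53 for Cers2 (OL miR-145 + miR-219, OL miR-145, OL miR-ctl). In the same order of groups it was 1.43, 1.18 and 1.49 for Elovl1, and 0.782, 0.81 and 0.899 for Elovl5. For Ugt8 it was 1.54, 1.43 and 1.09. Mbp was higher in replicate 2 of each OL group, at 15517, 10665 and 13143 CPM against 8096, 6236 and 6224 CPM. Gfap was lower in replicate 2 of each, at 4860.5, 6709 and 4179 CPM against 7754, 9708 and 4799 CPM.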
